A study of Mus musculus with 14 samples.

Results

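The endocytic scavenger receptors of liver sinusoidal endothelial cells (LSECs) described here are 9 genes, Stab1, Stab2, Lyve1, Mrc1, Scarb1, Scarf1, Msr1, Lrp1 and Dab2, chosen by symbol from the 54524 genes of the count table. No cutoff on their measured values was used, but earlier results of these data were known when they were chosen. All 9 passed the filter on low counts, which left 26626 genes. RNA was sequenced from LSECs of 14 male Balb/c mice aged 10 to 12 weeks by their labels: 4 healthy mice without any injection, and mice taken 1 day (2 mice), 3 days (4 mice) or 7 days (4 mice) after a single intraperitoneal dose of carbon tetrachloride (CCl4, 0.5 µl per g of body weight in mineral oil), a solvent that damages hepatocytes. The healthy mice received no mineral oil, so the effect of the oil cannot be told apart from that of CCl4. Cells were sorted for the Fc receptor CD32 and against F4/80, UV autofluorescence and propidium iodide, and the study's methods add sorting against CD45. RNA was taken without culture. The study states that 2 further day 1 samples were left out because their RNA quality was too low. Each value is therefore the mean over all cells that passed this gate in a mouse, in which fewer cells of a type and less RNA per cell cannot be told apart.

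LSECs line the liver sinusoid without a continuous basement membrane and are among the most active endocytic cells of the body. Through clathrin-coated pits they take up hyaluronan, collagen fragments, modified lipoproteins and other waste from the blood and pass them to lysosomes. Stabilin-1 (Stab1) and stabilin-2 (Stab2) are large multidomain scavenger receptors, and stabilin-2 is the main hyaluronan clearance receptor. Lyve1 is a hyaluronan receptor of lymphatic and sinusoidal endothelium. Mrc1 encodes the mannose receptor, which binds mannosylated glycoproteins and denatured collagen. Msr1, Scarb1 and Scarf1 encode class A, class B and class F scavenger receptors: Msr1 binds modified lipoproteins, Scarb1 is the HDL receptor and Scarf1 takes up acetylated LDL and apoptotic cells. Lrp1 encodes a very large receptor for apolipoprotein E, protease-inhibitor complexes and other ligands. Dab2 is not itself a receptor but a clathrin adaptor that links receptors of the LDL receptor family to the coat. Stab1, Mrc1, Msr1 and Lrp1 are also known from macrophages, and Lrp1 from hepatocytes and stellate cells.

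In the GENCODE vM21 annotation of GRCm38, Stab1 (ENSMUSG00000042286) lies on chromosome 14 from 31139013 to 31168641, minus strand, and Stab2 (ENSMUSG00000035459) on chromosome 10 from 86841198 to 87008025, minus strand. Lyve1 (ENSMUSG00000030787) spans positions 110850607 to 110863239 of chromosome 7, minus strand, and Mrc1 (ENSMUSG00000026712) spans 14229392 to 14332057 of chromosome 2, plus strand. Scarb1 (ENSMUSG00000037936) is on chromosome 5 from 125277087 to 125341094, minus strand, Scarf1 (ENSMUSG00000038188) on chromosome 11 from 75513540 to 75526582, plus strand, and Msr1 (ENSMUSG00000025044) on chromosome 8 from 39581685 to 39642673, minus strand. Lrp1 (ENSMUSG00000040249) occupies chromosome 10 from 127538161 to 127621148, minus strand, and Dab2 (ENSMUSG00000022150) chromosome 15 from 6299788 to 6440712, plus strand. The counted exons, merged over transcripts, measure 17.72 kb for Lrp1, 10.29 kb for Stab1 and 2.92 and 2.89 kb for Lyve1 and Scarf1, the shortest of the 9. Exons of another gene on the opposite strand cover 1.61% of the exon bases of Stab2, 1.09% of those of Stab1 and 2.87% of those of Dab2, and no exon base of the other 6. Use of the strand in counting is not stated, so these shares of the 3 genes are uncertain.

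RefSeq start sites of GRCm38.p6 gave upstream windows for 5 of the 9 genes, Stab1, Stab2, Mrc1, Lrp1 and Dab2. The 250 bases before the start are shown for Mrc1 and Lrp1, the genes with windows whose transcripts changed, in opposite directions, and for Stab1, whose transcripts did not pass the test. Sequences run 5′ to 3′ on the strand of the gene, and capitals mark a match to one of the motifs below. The Mrc1 window is chr2:14229164-14229413 (plus strand), of which the last 22 bases lie inside the GENCODE gene, the Lrp1 window is chr10:127621149-127621398 (minus strand) and the Stab1 window is chr14:31168642-31168891 (minus strand).
Mrc1: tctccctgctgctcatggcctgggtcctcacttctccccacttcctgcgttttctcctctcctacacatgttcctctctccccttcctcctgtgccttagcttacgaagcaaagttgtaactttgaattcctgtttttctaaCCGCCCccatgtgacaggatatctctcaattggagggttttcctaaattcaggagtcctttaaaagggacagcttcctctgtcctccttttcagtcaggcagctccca
Lrp1: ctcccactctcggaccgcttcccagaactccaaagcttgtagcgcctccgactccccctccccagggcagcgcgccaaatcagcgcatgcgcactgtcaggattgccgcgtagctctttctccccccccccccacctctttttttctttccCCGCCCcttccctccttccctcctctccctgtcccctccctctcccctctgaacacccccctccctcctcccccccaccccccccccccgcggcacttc
Stab1: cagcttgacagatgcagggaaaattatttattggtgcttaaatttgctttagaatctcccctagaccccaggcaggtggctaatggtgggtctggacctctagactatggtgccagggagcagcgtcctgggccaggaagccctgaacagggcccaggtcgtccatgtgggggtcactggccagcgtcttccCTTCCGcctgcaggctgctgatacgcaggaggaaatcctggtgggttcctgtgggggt
The motifs searched on both strands were GATAA (bound by GATA factors), CGGAAG (ETS factors), GGGCGG (the GC box), TGANTCA (AP-1) and TATAAA (the TATA box). The Mrc1 and Lrp1 windows each held a single GC box, beginning 108 and 99 bases before the start, and 32.7% of 32851 windows of this length in the mouse table hold one. The Stab1 window held an ETS motif (13.6% of all windows) and the Stab2 window none of the 5. The Lrp1 window held 67.2% G and C against a median of 52.4% over all windows. It had 13 CpG dinucleotides against 3 in the Mrc1 window and 5 in the Stab1 window, and a second Dab2 window, inside the GENCODE gene, had 17. These matches describe the letters of the windows only.

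Between 46401496 and 103912264 reads were counted per mouse. Values are given as CPM, the count of a gene relative to the TMM-scaled library size. LSEC markers outside the 9 genes were high throughout, with Clec4g between 1987 and 6517 CPM and Fcgr2b, which encodes the sorted CD32, between 1380 and 3397 CPM. Their list of 12 summed to 23660 to 26850 CPM in healthy mice and to 11660 to 17980 CPM after CCl4, with 3 of 12 lower and 1 higher at day 1 and 5 lower at day 3 (edgeR). Several libraries stood apart in markers of other cells. The neutrophil gene S100a8 was at 992 and 590 CPM in day 3 replicates 1 and 2 against 12.8 and 3.21 CPM in replicates 3 and 4, and at 2140 and 736 CPM in both day 1 mice. The hepatocyte gene Alb was at 2611 CPM in healthy replicate 4 against 68.8 to 124 CPM in the other healthy mice, and the Kupffer cell gene Clec4f was at 58.9 CPM in healthy replicate 1 against 461 to 554 CPM in the others.

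Expression of the 9 genes in healthy LSECs differed widely when CPM were also divided by exon length (RPKM). Mrc1 was the highest at 243 ± 7.90 RPKM (mean ± SD, n = 4), followed by Stab2 at 207 ± 18.7, Msr1 at 143 ± 14.1, Lyve1 at 133 ± 37.4, Stab1 at 92.1 ± 11.7, Dab2 at 75.3 ± 5.82, Scarf1 at 54.4 ± 4.57, Scarb1 at 20.3 ± 4.76 and Lrp1 at 1.90 ± 0.860 RPKM. Ranges of neighbours in this order overlapped for Msr1 and Lyve1, Lyve1 and Stab1, and Stab1 and Dab2, and the other neighbours did not overlap. Msr1 exceeded Lyve1 in 3 of 4 mice, while Lyve1 exceeded Stab1 and Stab1 exceeded Dab2 in 4 of 4. The mannose receptor varied least between healthy mice (coefficient of variation 3.25%). With the length of the longest transcript in place of all exons, Scarb1 rose to 55.7 RPKM, next to Scarf1, and Msr1 to 250 RPKM, above Stab2, so the places of these 2 genes depend on the length used.

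**Figure D1:**
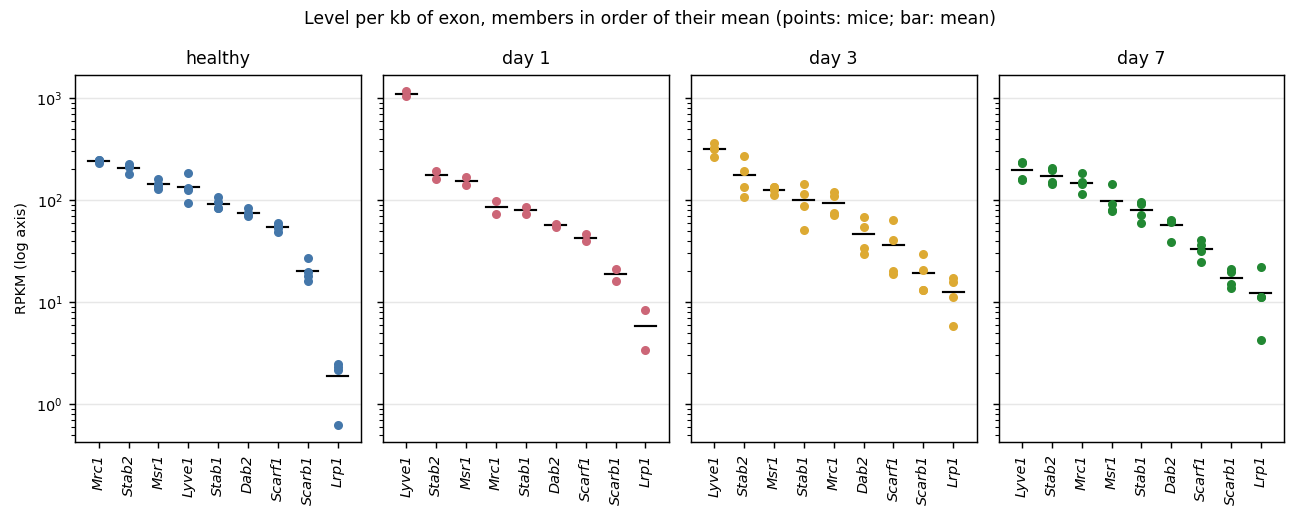
Level of the 9 genes per kb of exon (RPKM, log axis) in each group, ordered by group mean, with 1 point per mouse and a bar at the mean. Mrc1 leads in healthy mice at 243 RPKM, Lyve1 leads at day 1 at 1099 RPKM, and Lrp1 is last in every group.

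This order changed after CCl4. At day 1 Lyve1 stood first at 1099 ± 91.2 RPKM (n = 2), well above the next gene, and Mrc1 stood behind Stab2 and Msr1 at 85.9 ± 18.1 RPKM. Lyve1 was also first at day 3 at 317 ± 39.0 RPKM (n = 4) and at day 7 at 196 ± 43.0 RPKM, but its range overlapped that of Stab2 on both days. Stab2 was second in all 4 groups, between 173 and 207 RPKM. With the longest transcript as length Lyve1 was again first on these 3 days, but Msr1 was ahead of Stab2 in healthy mice and at day 1 and day 3 (271 RPKM at day 1). Of the summed RPKM of the 9 genes, Lyve1 made up 13.5 ± 2.85% in healthy mice, 63.9 ± 1.12% at day 1, 34.9 ± 5.0% at day 3 and 24.0 ± 3.09% at day 7, while Mrc1 made up 25.1 ± 1.74%, 4.97 ± 0.728%, 10.1 ± 0.953% and 18.0 ± 1.63%. Lrp1 was last in every group but stood at 12.5 ± 5.07 RPKM at day 3 and 12.2 ± 7.36 RPKM at day 7, where its range overlapped that of Scarb1. With the longest transcript the means were 14.9 RPKM for Lrp1 and 52.4 RPKM for Scarb1 at day 3 and 14.5 and 47.6 RPKM at day 7.

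A gene was taken as changed when the adjusted p of edgeR's quasi-likelihood test, in a model of all 14 samples, was below 0.05. At day 1, 2 of the 9 genes changed against healthy LSECs, Lyve1 upward and Mrc1 downward, beside 4.06% of all tested genes. At day 3, 3 of 9 changed, Lyve1 and Lrp1 upward and Mrc1 downward (7.19% of all genes). At day 7 only Lrp1 changed (3.18% of all genes). Between day 1 and day 3 Lyve1 alone changed (2.54% of all genes). Between day 3 and day 7 edgeR called 0 of 9 (1.77% of all genes), although Lyve1 and Mrc1 had an unadjusted p under 0.05, while DESeq2 called 1 and limma voom 3. The median log2 fold change of the 9 genes was -0.22 at day 1, -0.18 at day 3 and -0.26 at day 7, beside -0.03, 0.18 and 0.02 over all genes tested. Stab1, Stab2, Scarb1, Scarf1, Msr1 and Dab2 passed the test in no comparison. Of genes with at least 10 counts in every sample, as all 9 had, edgeR called larger shares. These were 8.11%, 14.6% and 6.95% at day 1, day 3 and day 7 against healthy LSECs. Between day 1 and day 3 the share was 5.12%, and between day 3 and day 7 it was 3.77%. The 3 comparisons with healthy LSECs share the healthy mice.

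**Figure D2:**
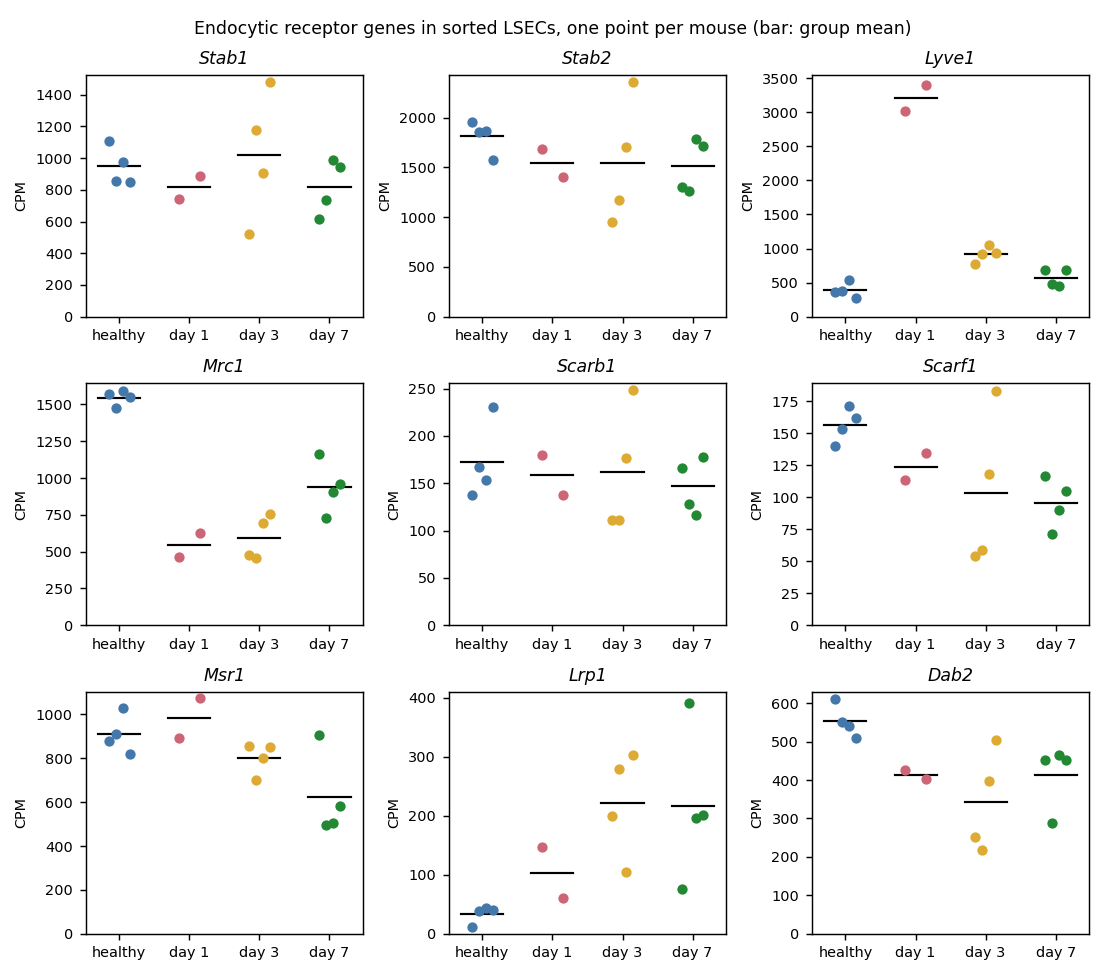
CPM of the 9 genes by group, with 1 point per mouse and a bar at the group mean. Lyve1 peaks at day 1 between 3020 and 3397 CPM, Mrc1 lies below every healthy mouse on all 3 days, and Lrp1 is above every healthy mouse on all 3 days.

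**Figure D3:**
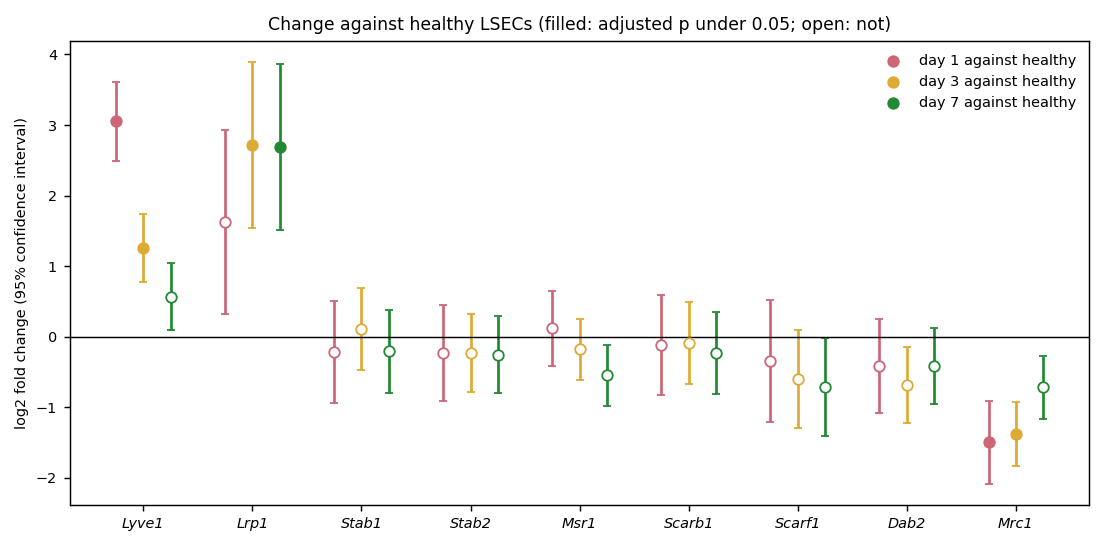
Log2 fold change of each gene against healthy LSECs at day 1, day 3 and day 7 with its 95% confidence interval from edgeR. Filled points passed the test, which were Lyve1 and Mrc1 at day 1, Lyve1, Lrp1 and Mrc1 at day 3 and Lrp1 at day 7.

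Lyve1, the hyaluronan receptor, was counted at 363, 381, 534 and 271 CPM in the 4 healthy mice. At day 1 the 2 mice had 3020 and 3397 CPM, more than 5 times the highest healthy value. Lyve1 rose 8.28-fold at day 1 (log2 fold change 3.05 ± 0.26 SE, adjusted p = 4.45e-05, edgeR). The day 3 mice had 779, 925, 1057 and 935 CPM, all above the healthy mice and below the day 1 mice. At day 3 Lyve1 was 2.39-fold above healthy LSECs (log2 1.25 ± 0.22 SE, adjusted p = 0.00644, edgeR) and 3.47-fold below day 1 (log2 -1.80 ± 0.26 SE, adjusted p = 0.00393, edgeR). At day 7 the values were 682, 473, 455 and 680 CPM, which overlapped the healthy mice, and the difference did not pass the test (log2 0.56 ± 0.22 SE, adjusted p = 0.168, edgeR). The day 7 mice were all below the day 3 mice, but that difference did not pass either (log2 -0.69 ± 0.22 SE, adjusted p = 0.139, edgeR). Without day 1 replicate 2 the difference between day 3 and day 1 no longer passed (adjusted p = 0.0571, edgeR), with a log2 difference of -1.79. The sum of 12 leukocyte and lymphocyte markers moved with the day 1 group, at 2638 to 6260 CPM against 89.3 to 412 CPM in healthy mice. Most of the day 1 sum came from the neutrophil genes S100a8 (2140 and 736 CPM) and S100a9 (3692 and 1595 CPM). In log2 fold change at day 1, 6 of the 12 were above 0 and 6 at or below 0 (median 0.30). Of the 12, 2 passed the test at day 1, Cxcr2 and S100a8. At day 3 the 2 mice with high S100a8 had 779 and 925 CPM of Lyve1 and the other 2 mice 1057 and 935 CPM. Without the former, a choice made after seeing the data, Lyve1 at day 3 gave a log2 fold change of 1.34 (adjusted p = 0.0112, edgeR). The part of leukocytes in the Lyve1 values, at day 1 above all, was not tested.

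Mrc1, the mannose receptor, was the steadiest of the 9 genes in healthy LSECs, at 1569, 1474, 1589 and 1553 CPM. The day 1 mice had 466 and 629 CPM. Mrc1 fell 2.83-fold at day 1 (log2 fold change -1.50 ± 0.27 SE, adjusted p = 0.00756, edgeR). At day 3 the values were 475, 458, 694 and 756 CPM, again well below every healthy mouse. The fall at day 3 was 2.60-fold (log2 -1.38 ± 0.21 SE, adjusted p = 0.00282, edgeR). At day 7 the mice had 1162, 728, 904 and 962 CPM, between the day 3 and healthy levels and still without overlap with the healthy mice. The day 7 difference from healthy LSECs did not pass (log2 -0.72 ± 0.21 SE, adjusted p = 0.0753, edgeR), nor did that from day 3 (log2 0.66 ± 0.21 SE, adjusted p = 0.133, edgeR). DESeq2 called both (adjusted p = 0.0238 and 0.0265). With a single day 1 mouse, which is then assumed to vary like the other groups, the call at day 1 was lost (log2 -1.33, adjusted p = 0.282 without replicate 1 and log2 -1.76, adjusted p = 0.0599 without replicate 2, edgeR). Kupffer cells also express Mrc1. The median sum of the 10 Kupffer cell markers was 1285 CPM in healthy mice (range 365 to 1551), 930 CPM at day 1 (631 to 1230), 598 CPM at day 3 (353 to 853) and 832 CPM at day 7 (574 to 1176), and 1 of the 10, Slc40a1, was lower at day 1 and day 3 (adjusted p = 0.0403 and 0.00281, edgeR). Healthy replicate 1, with the lowest healthy sum (365 CPM), had 1569 CPM of Mrc1. The median sum of the LSEC markers moved from 25250 CPM in healthy mice to 13600, 13360 and 15160 CPM at day 1, day 3 and day 7. The part of either in the Mrc1 values was not tested.

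Lrp1, the receptor for apolipoprotein E and protease complexes, was low in healthy LSECs at 11.1, 38.3, 44.2 and 41.0 CPM. The day 1 mice had 147 and 60.4 CPM, both above the healthy mice, but the change did not pass (log2 fold change 1.62 ± 0.61 SE, adjusted p = 0.167, edgeR). It was 0.80 on the log2 scale without replicate 1 and 2.09 without replicate 2. At day 3 the values were 199, 280, 104 and 303 CPM. Lrp1 was 6.58-fold higher at day 3 (log2 2.72 ± 0.55 SE, adjusted p = 0.0110, edgeR). At day 7 the mice had 75.9, 392, 197 and 201 CPM, a wide spread that still lay above all healthy mice. The rise at day 7 was 6.42-fold (log2 2.68 ± 0.55 SE, adjusted p = 0.0207, edgeR), and day 7 against day 3 gave a log2 difference of -0.03 (95% confidence interval -1.14 to 1.07). The call at day 7 was lost when healthy replicate 1, 2 or 3 or day 7 replicate 2 was left out (adjusted p = 0.0614, 0.0643, 0.0562 and 0.0710, edgeR), with log2 fold changes from 2.23 to 2.84. Without healthy replicate 1, the lowest of all mice, Lrp1 was still higher at day 3 (log2 2.43, adjusted p = 0.0288, edgeR).

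Markers of some other liver cells that are known to express Lrp1 moved with it, and those of others did not. Of 12 stellate cell markers, 9 were higher at day 3 and 10 at day 7 (edgeR), and the median of their sum was 348 CPM in healthy mice (range 296 to 484), 227 CPM at day 1 (211 to 244), 1815 CPM at day 3 (818 to 2236) and 2169 CPM at day 7 (566 to 6192). Within day 3 and within day 7 the mouse with the lowest stellate sum had the lowest Lrp1 (replicate 3 and replicate 1) and the mouse with the highest stellate sum the highest Lrp1 (replicate 4 and replicate 2). At day 1, where Lrp1 was above the healthy mice in both mice, the stellate sum was below the healthy range. Of 8 injury macrophage markers, 3 were higher at day 1, 6 at day 3 and 6 at day 7, with median sums of 613 CPM in healthy mice (range 463 to 686), 1570 CPM at day 1 (1257 to 1882), 2429 CPM at day 3 (1425 to 3470) and 4206 CPM at day 7 (1881 to 8206). Of 12 monocyte and macrophage markers, 2, 7 and 2 were higher on these days, with median sums of 1104 CPM in healthy mice (range 555 to 1664), 2560 CPM at day 1 (2323 to 2796), 4724 CPM at day 3 (1939 to 11800) and 8802 CPM at day 7 (4723 to 10520). Most of the day 7 sum was the single gene Lyz2, at 6837, 9304, 9056 and 3919 CPM. From day 3 to day 7, 5 of the 12 had a log2 fold change above 0 and 7 at or below 0 (median -0.61). Within day 3 the mouse with the highest Lrp1 (replicate 4) had the lowest injury macrophage and monocyte and macrophage sums (1425 and 1939 CPM). Within day 7 the mouse with the highest Lrp1 (replicate 2) had the highest of both (8206 and 10520 CPM). Atp6v0d2 and Chil3 of the macrophage lists were under 1 CPM in every healthy mouse, and no stellate marker was under 1 CPM in all mice of a group. The median Kupffer cell sums given above were lower than in healthy mice on all 3 days. In healthy mice, at day 3 and at day 7 the mouse with the lowest Kupffer cell sum had the lowest Lrp1 (replicates 1, 3 and 1). The highest of both fell in the same mouse in healthy mice (replicate 3) but not at day 3 or day 7. At day 1, replicate 1 was above replicate 2 in Lrp1 and in the stellate, Kupffer cell and both macrophage sums. Of 10 hepatocyte markers, 0 were called against healthy LSECs on any day. The median of their sum was 331 CPM in healthy mice (range 206 to 8953), 87.4 CPM at day 1, 2090 CPM at day 3 and 2765 CPM at day 7. Some of these markers are also LSEC genes in the study. Its damaged LSEC signature holds Fabp5, which is on the injury macrophage list. Its genes enriched in healthy human LSECs include Reln and Ecm1, which are on the stellate list. The sums are therefore not measures of other cells alone. The part of these cells in the Lrp1 values was not tested.

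**Figure D4:**
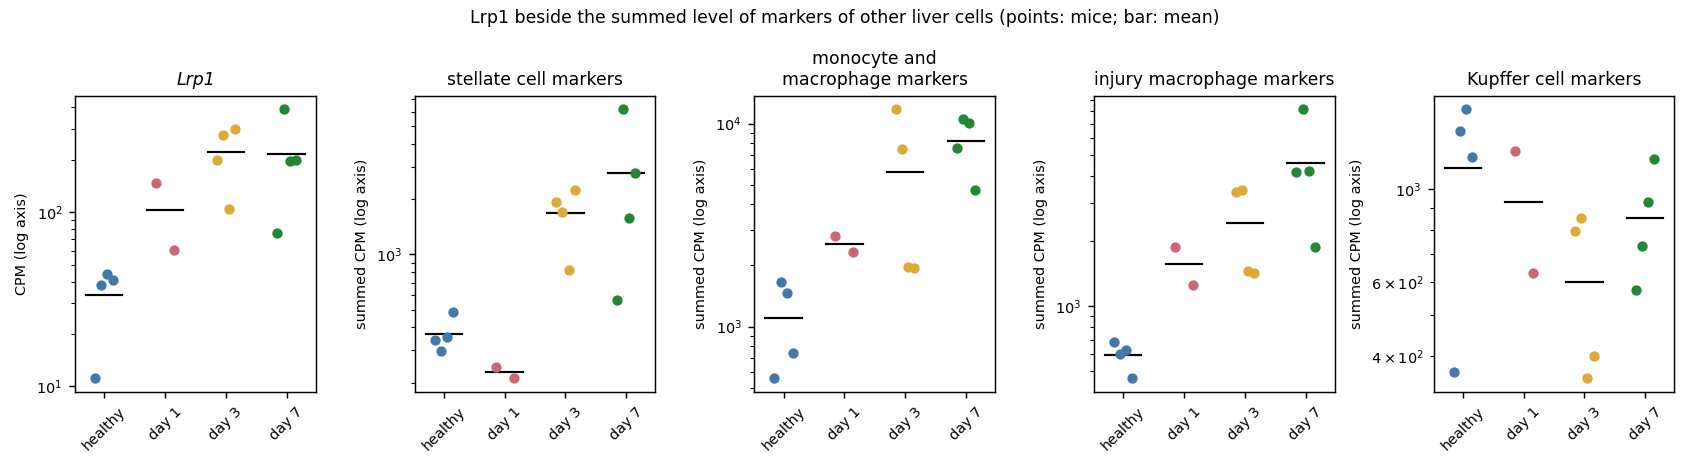
Lrp1 (CPM) beside the summed CPM of 12 stellate cell, 12 monocyte and macrophage, 8 injury macrophage and 10 Kupffer cell markers on log axes, with 1 point per mouse and a bar at the group mean. Lrp1 and the stellate sum share their lowest and highest mouse within day 3 and within day 7, while at day 1 Lrp1 is above and the stellate sum below the healthy mice. Lrp1 and the Kupffer cell sum share their lowest mouse in healthy mice, at day 3 and at day 7.

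The stabilins were abundant in every group and showed no change that passed the test. Stab2 was at 1577 to 1954 CPM in healthy mice, 1684 and 1405 CPM at day 1, 947, 1168, 1701 and 2363 CPM at day 3 and 1308, 1266, 1785 and 1716 CPM at day 7. Its log2 fold changes against healthy LSECs were -0.23 at day 1 (95% confidence interval -0.91 to 0.45), -0.23 at day 3 (-0.78 to 0.32) and -0.26 at day 7 (-0.81 to 0.29), so changes of more than 2-fold in either direction lay outside the intervals. Stab1 was at 852 to 1106 CPM in healthy mice, 745 and 886 CPM at day 1, 519, 1179, 907 and 1479 CPM at day 3 and 614, 733, 988 and 942 CPM at day 7. Its log2 fold changes were -0.22 (-0.94 to 0.51), 0.11 (-0.48 to 0.69) and -0.21 (-0.80 to 0.38). For both genes the day 3 mice lay below, within and above the healthy range.

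Msr1, the class A receptor, was at 878, 911, 1030 and 818 CPM in healthy mice and within or just above that range at day 1, at 894 and 1075 CPM. At day 3 the mice had 857, 703, 799 and 849 CPM. At day 7 replicate 1 had 907 CPM and the other 3 mice 496, 503 and 582 CPM, below every healthy mouse. The day 7 difference did not pass (log2 fold change -0.55 ± 0.20 SE, adjusted p = 0.144, edgeR), and it passed without replicate 1 (log2 -0.79, adjusted p = 0.0187, edgeR). The part of Kupffer cells and other macrophages in the Msr1 values was not tested.

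Scarb1, the HDL receptor, was at 138 to 230 CPM in healthy mice, and its values overlapped the healthy range on each day, with log2 fold changes at day 1, day 3 and day 7 of -0.12 (95% confidence interval -0.83 to 0.60), -0.09 (-0.67 to 0.49) and -0.23 (-0.81 to 0.35). Its highest healthy value was that of replicate 4, the mouse with high Alb. Scarf1 was at 141, 154, 172 and 162 CPM in healthy mice, and both day 1 mice (113 and 134 CPM) and all day 7 mice (116, 71.4, 90.4 and 105 CPM) lay below them. Neither difference passed (log2 fold change -0.34 at day 1, adjusted p = 0.753, and -0.71 at day 7, adjusted p = 0.228, edgeR). Dab2, the clathrin adaptor, was at 610, 552, 540 and 508 CPM in healthy mice. On all 3 days every mouse was below the lowest healthy mouse, with 426 and 403 CPM at day 1, 251, 217, 397 and 505 CPM at day 3 and 452, 288, 464 and 452 CPM at day 7. Its log2 fold changes, -0.42 ± 0.31 SE, -0.69 ± 0.25 SE and -0.42 ± 0.25 SE, did not pass (adjusted p = 0.557, 0.118 and 0.355, edgeR).

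At day 3 the mice divided for several of these genes. Replicates 1 and 2, with high S100a8, had 53.8 and 58.6 CPM of Scarf1 against 118 and 183 CPM in replicates 3 and 4, and likewise 251 and 217 against 397 and 505 CPM of Dab2 and 111 CPM in both against 177 and 249 CPM of Scarb1. Stab2 followed the same order, at 947 and 1168 against 1701 and 2363 CPM. Replicate 4, the highest in Stab1, Stab2, Scarb1, Scarf1 and Dab2, decided the calls of 2 genes. Without it Scarf1 and Dab2 were lower at day 3 (log2 fold change -1.10, adjusted p = 0.0275, and -1.01, adjusted p = 0.0178, edgeR). Without replicates 1 and 2, Lyve1, Mrc1 and Lrp1 again were the 3 genes that passed at day 3 and the log2 fold changes of Scarf1 and Dab2 shrank to -0.09 and -0.32. The sum of monocyte and macrophage markers was 11800 and 7494 CPM in replicates 1 and 2 against 1955 and 1939 CPM in replicates 3 and 4, and its part in these differences was not tested.

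Scaling on 11 genes common to endothelial cells in place of TMM shifted all genes upward. Of these 11, 4 were lower at day 3 and 3 at day 7 under TMM. The median log2 fold change over all genes then was 0.22 at day 1, 0.96 at day 3 and 0.61 at day 7. Under this scaling Lyve1 was higher on all 3 days (log2 3.32, 2.00 and 1.18, adjusted p = 0.00013, 0.000661 and 0.011, edgeR), Lrp1 at day 3 and day 7 (log2 3.46 and 3.33), and Mrc1 was lower at day 1 and day 3 (log2 -1.26 and -0.68, adjusted p = 0.0170 and 0.0264, edgeR). Stab1 passed at day 3 (log2 0.77, adjusted p = 0.0235, edgeR), below the shift of all genes. Stab2, Scarb1 and Msr1 turned from below to above 0 at day 3 and passed in neither scaling.

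Ratios between the genes within a mouse do not depend on the scaling and ask whether the receptors changed together. For 6 pairs, chosen by function and sharing Stab2 or Mrc1 in part, the log2 ratio of counts per kb was compared with two-sided exact permutation tests, adjusted over the 6 pairs. With 4 mice against 4 the smallest possible p is 0.0286, and with 2 against 4 it is 0.0667, so no pair could pass at day 1. Lyve1 stood below Stab2 in all healthy mice (log2 ratio -0.68 ± 0.32) and above it in both day 1 mice (2.64 ± 0.30) and all day 3 mice (0.92 ± 0.49). The difference at day 3 was 1.60 (exact p = 0.0286, adjusted p = 0.0429). Mrc1 stood above Stab2 in all healthy mice (0.23 ± 0.14) and below it in both day 1 mice (-1.05 ± 0.49) and all day 3 mice (-0.86 ± 0.27), a difference of -1.09 at day 3 (exact p = 0.0286, adjusted p = 0.0429).

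Per kb of merged exon, the pair Msr1 and Mrc1 crossed and returned. Msr1 was below Mrc1 in all 4 healthy mice (log2 ratio -0.76 ± 0.14), above it in both day 1 mice (0.86 ± 0.12) and all 4 day 3 mice (0.47 ± 0.33), and below it again in all 4 day 7 mice (-0.61 ± 0.21). With the longest transcript as length, the day 7 means were 171 RPKM for Msr1 and 175 RPKM for Mrc1. Which of the 2 genes was higher at day 7 thus depends on the length used, while differences between groups do not. The day 3 difference from healthy LSECs was 1.23 (exact p = 0.0286, adjusted p = 0.0429), that of day 7 was 0.15 (exact p = 0.314), and that between day 7 and day 3 was -1.08 (exact p = 0.0286, adjusted p = 0.0858). Dab2 exceeded Lrp1 per kb in every mouse, by a log2 ratio of 5.49 ± 1.05 in healthy mice, 3.41 ± 0.85 at day 1, 1.93 ± 0.96 at day 3 and 2.41 ± 1.24 at day 7. Its fall at day 3 was 3.56 on the log2 scale (exact p = 0.0286, adjusted p = 0.0429), and the day 7 mice were also all below the healthy mice (exact p = 0.0286, adjusted p = 0.114). The log2 ratio of Stab1 to Stab2 was -1.17 ± 0.13 in healthy mice, -1.15 ± 0.36 at day 1, -0.84 ± 0.43 at day 3 and -1.13 ± 0.13 at day 7, and day 3 against healthy gave an exact p of 0.171. Scarf1 to Scarb1 differed by -0.64 at day 3 (exact p = 0.0571, adjusted p = 0.0685). At day 7 no pair passed after adjustment, where the lowest exact p was 0.0286. That is the smallest possible p with 4 mice against 4, and the pairs that passed at day 3 had the same exact p. The adjusted p falls as more of the 6 pairs reach this value, so a pair that reached it alone could not pass. The adjusted p of 0.114 and 0.0858 thus do not mark a weaker separation than 0.0429 at day 3.

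**Figure D5:**
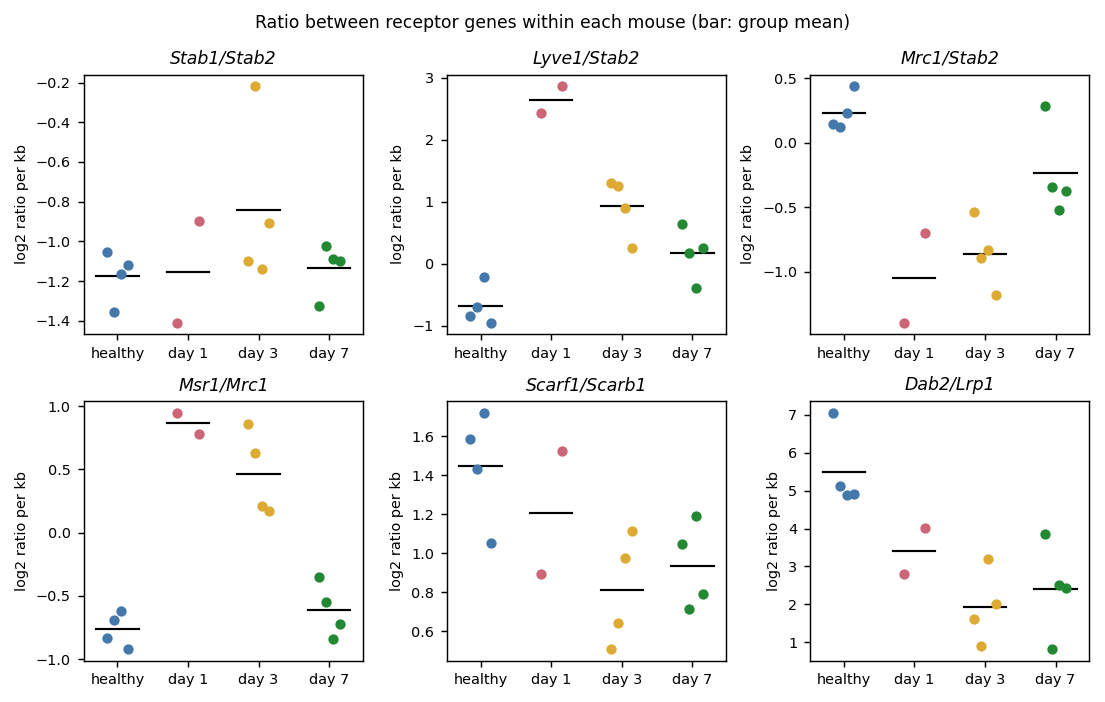
Log2 ratio of counts per kb of exon for 6 pairs of genes by group, with 1 point per mouse and a bar at the mean. Lyve1 to Stab2 and Msr1 to Mrc1 lie above 0 in all day 1 and day 3 mice and Msr1 to Mrc1 lies below 0 in all healthy and day 7 mice. The place of Msr1 to Mrc1 against 0 at day 7 depends on the length used.

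Of 31 other scavenger and endocytic receptors tested, 2 rose and 2 fell at day 1, 6 rose and 4 fell at day 3 and 6 rose at day 7, where 4.06%, 7.19% and 3.18% of all genes were called (median log2 fold change -0.27, -0.11 and 0.24, beside -0.03, 0.18 and 0.02 over all genes). Olr1, the receptor for oxidised LDL, rose from 0.447 to 12.7 CPM at day 1 (log2 fold change 4.82), 6.15 CPM at day 3 (3.78) and 6.49 CPM at day 7 (3.86). Sorl1, a sorting receptor related to Lrp1, rose at day 1 from 7.85 to 63.4 CPM (log2 3.01). Mrc2, the collagen-binding relative of Mrc1, rose while Mrc1 fell at day 3, from 0.362 to 7.33 CPM (log2 4.34), and stood at 10.8 CPM at day 7 (log2 4.90). The stellate and macrophage sums given above were higher in the same groups, and their part was not tested. Pla2r1, another member of the mannose receptor family, fell with Mrc1 from 93.2 to 19.3 CPM at day 1 (log2 -2.27) and to 32.3 CPM at day 3 (log2 -1.53), and it rose again between day 3 and day 7 to 64.0 CPM (log2 0.99, adjusted p = 0.0380, edgeR). Cxcl16, a scavenger receptor and chemokine, fell at day 1 (log2 -1.57) and day 3 (log2 -0.62), as did Fcgr2b (log2 -0.85) and the neonatal Fc receptor Fcgrt (log2 -0.67) at day 3. Cd68, which is also on the macrophage marker list, rose at day 3 (log2 2.68), and Lrp4 rose at day 7 from 0.349 to 1.44 CPM (log2 2.04).

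Of 25 coat and adaptor genes of the uptake machinery, 2 rose and 2 fell at day 1, 3 fell at day 3 and 1 fell at day 7, beside the 4.06%, 7.19% and 3.18% of all genes called. Their median log2 fold change was -0.11 at day 1, -0.22 at day 3 and -0.14 at day 7. Picalm, which recruits clathrin, rose at day 1 from 114 to 379 CPM (log2 fold change 1.74) and the clathrin light chain gene Cltb from 96.2 to 196 CPM (log2 1.03), while Gulp1 (log2 -3.34) and the motor gene Myo6 (log2 -1.38) fell. Picalm and Cltb fell and Gulp1 rose between day 1 and day 3 (log2 -1.31, -0.99 and 2.60). At day 3 Myo6, Eps15 and Fcho2 were lower (log2 -1.06, -0.76 and -0.73), and at day 7 Cltb was lower (log2 -0.60). Of 27 genes of early endosomes and recycling, 1 fell at day 1 and 3 at day 3, led by Ehd3, which is also on the LSEC marker list. Ehd3 fell from 3922 to 980 CPM at day 1 (log2 -2.0) and to 1662 CPM at day 3 (log2 -1.24), with Snx2 and Vps35 lower at day 3 (log2 -0.89 and -0.59). The list median was -0.38 at day 3 and -0.41 at day 7, beside 0.18 and 0.02 over all genes. At day 7 edgeR called 0 of the 27, of which 11 had an unadjusted p under 0.05, DESeq2 2 and limma voom 14. With endothelial scaling, which shifts all genes, the medians turned to 0.42 and 0.18 for this list and to 0.50 and 0.44 for the coat and adaptor genes, and 8 of the latter were called higher and 0 lower at day 3.

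Among 11 genes of hyaluronan, the ligand of stabilin-2 and Lyve1, 1 rose at day 1, 3 rose and 1 fell at day 3, and 2 rose and 1 fell at day 7, beside 4.06%, 7.19% and 3.18% of all genes. The surface receptor Cd44 rose from 25.8 CPM to 124 CPM at day 1, 117 CPM at day 3 and 90.6 CPM at day 7 (log2 fold change 2.27, 2.18 and 1.81). Tnfaip6, a hyaluronan-binding protein, was higher at day 3 and day 7 (log2 2.45 and 2.43) and the mitotic gene Hmmr at day 3 (log2 1.81), and Hyal2, a hyaluronidase, was lower at day 3 (log2 -1.12) and day 7 (log2 -1.10). Of 14 genes listed as other ligands of the 9 genes, 2 rose and 2 fell at day 1, 8 rose and 2 fell at day 3 and 6 rose and 1 fell at day 7, beside the same shares of all genes. Thbs1, a ligand of Lrp1, rose from 4.64 to 115 CPM at day 1 (log2 4.63), with Tgfbi, a ligand of stabilin-1, also higher (log2 2.28). Postn rose at day 3 and day 7 (log2 4.05 and 4.57), as did the lipase gene Lpl (log2 3.38 and 3.50), and Fn1 was higher at day 7 (log2 4.63). Gas6 was lower on all 3 days (log2 -2.83, -2.25 and -1.19) and Apoe at day 1 and day 3 (log2 -1.28 and -0.72). Gas6, a bridging ligand of apoptotic cells, is on the list of 14 but is not an established ligand of any of the 9 genes. Postn and Fn1 are also stellate cell genes, and the stellate sums given above moved with them. The leukocyte sums at day 1 and the median macrophage sums on all 3 days, given above, were also higher than in healthy mice, as Cd44 was. Thbs1 and Tgfbi rose at day 1 beside the same sums. The part of other cells in the values of these genes was not tested. Of 6 chaperone and ectodomain protease genes, 0 passed the test in edgeR on any day, and 1, 2 and 1 had an unadjusted p under 0.05 at day 1, day 3 and day 7. DESeq2 called 0, 1 and 0 of them and limma voom 2, 2 and 1.

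Across all 14 mice, the genes most like each member in log2 CPM, out of 11231 genes searched, are given as a description, since the mice share groups and scaling. Lyve1 was most like Atf6, Itgb3 and Mgat5 (Pearson r = 0.951, 0.946 and 0.944), Mrc1 like Rmi1, Enpep and Prkcq (0.965, 0.965 and 0.963), and Lrp1 like Dtx4, Adap2 and Myof (0.976, 0.975 and 0.961). Stab2 was most like Spns2, Lmtk2 and Adnp2 (0.936, 0.929 and 0.925) and Stab1 like Flt4, Syde1 and Zfp275 (0.898, 0.894 and 0.884). Scarf1 was most like Ncstn, Cyb5d1 and Chmp7 (0.967, 0.966 and 0.965), Dab2 like Fam124a, Topors and Ccm2l (0.959, 0.958 and 0.951), Msr1 like Gm6430, Gm12435 and Ciao1 (0.955, 0.952 and 0.949) and Scarb1 like Tm9sf4, Tmx4 and Tysnd1 (0.890, 0.870 and 0.869). Among the 9 genes themselves the closest pairs were Scarf1 and Dab2 (r = 0.894), Stab2 and Dab2 (0.832) and Stab2 and Scarf1 (0.814), and the most opposed were Lyve1 and Mrc1 (-0.716) and Mrc1 and Lrp1 (-0.715).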

How the data were processed

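The authors checked and cleaned the reads, mapped them with STAR to GRCm38, ran StringTie, and deposited raw counts, whole numbers for each Ensembl gene. The libraries were made with a SMARTseq v4 kit. The annotation release, the use of strand and how StringTie's output became whole numbers are not given in the sources used here. No column was left unused. Of 54524 genes, 54495 matched GENCODE vM21, which gave symbols, positions and exon lengths.

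The 9 genes, the gene lists and the comparisons were chosen with earlier results of these data known. Low genes were removed by filterByExpr at a count of 10 and a total of 15. TMM gave the scaling. The test was that of edgeR 4.0.16 (R 4.3.3, quasi-likelihood, Benjamini-Hochberg over 26626 genes, threshold 0.05) in a model of the 4 group means over 14 samples. The study's methods name DESeq2, which was run as an alternative. Standard errors are the absolute log2 fold change over the square root of F. The log2 CPM used a prior count of 2, and ratios had 0.5 added to each count. The genes named were the 9 members, in each list the changed genes with the largest changes in a comparison (up to 3 each way), and the 3 genes most correlated with each member among those with a median of at least 5 CPM and no overlap with it. A gene that this rule names is not reported here. Marker genes are named where their list is described. The edgeR p-values set each difference against a spread between mice that is estimated over all 4 groups and moderated over genes. At day 1, with 2 mice, this spread rests largely on the other groups. The p-values of the ratios come from permutation of the mice. The fits were tested on simulated counts.

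The following were tried in place of the main choices: voom of limma 3.58.1 with sample weights, DESeq2 1.42.0, scaling by RLE, by endothelial genes or by the total alone, other filters, models of only the 2 groups compared, the replicate number as a block, the longest transcript as length and leaving out each mouse. Promoter windows were taken from RefSeq on GRCm38.p6. The sum of counts per sample sets the precision, and with 1111 counts for the lowest value of the 9 genes counting error was small beside the spread between mice.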

Additional observations from a re-analysis of the deposited data

Results flagged for a closer look

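Lrp1 was lower in healthy replicate 1 (11.1 CPM) than in the other 3 healthy mice (38.3 to 44.2 CPM). The gap to the nearest mouse was 0.895 of the healthy range on the log2 scale, above Dixon's limit for 4 samples. The log2 ratio of Dab2 to Lrp1 was correspondingly highest in this mouse, with a gap of 0.889 of the range. The same library was lowest of the healthy mice in the summed Kupffer cell markers (365 CPM against 1192 to 1551 CPM) and in the monocyte and macrophage markers (555 CPM against 738 to 1664 CPM). Dab2 was lower in day 7 replicate 2 (288 CPM) than in the other day 7 mice (452 to 464 CPM), with a gap of 0.944 of the range. This library also had the highest stellate cell sum of all mice (6192 CPM). Dixon's limit was applied to 45 groups of 4 values, and chance alone flags about 1 in 20.

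The change of Lyve1 against healthy LSECs differed between day 3 and day 1 by a direct test (log2 difference -1.80, adjusted p = 0.00393, edgeR). Every day 3 mouse lay below every day 1 mouse.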

How the results depend on the processing

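The rise of Lyve1 and the fall of Mrc1 at day 1 and the 3 calls at day 3 passed under each scaling, filter and tool tried, the replicate block included, with all mice present. Other counts of members moved. At day 3 limma voom called 6, adding Stab2, Scarf1 and Dab2. At day 7 the count was 2 with endothelial scaling (Lyve1, Lrp1), 2 with DESeq2 (Mrc1, Lrp1), 4 with voom, 3 with only the 2 groups compared and 3 without both day 3 replicates 1 and 2, an alternative chosen after seeing the data. Between day 3 and day 1 voom called 3. Between day 7 and day 3, where edgeR called 0 and 2 members had an unadjusted p under 0.05, DESeq2 called 1 and voom 3 (1.77% of all genes in edgeR). Leaving out 1 mouse gave 1 to 2 members at day 1, 3 to 5 at day 3, 0 to 2 at day 7, 0 to 1 between day 3 and day 1 and 0 to 1 between day 7 and day 3. The causes of these moves were not tested. Over all genes, edgeR called 1080 at day 1, 1915 at day 3, 846 at day 7, 676 between day 3 and day 1 and 472 between day 7 and day 3. In that order DESeq2 called 2699, 3625, 2599, 2274 and 1702, and voom 4308, 7265, 7047, 3344 and 6002. Models of only the 2 groups gave 2327, 1108, 3156, 189 and 1, the block 594, 1385, 435, 311 and 244, and leaving out 1 mouse 164 to 1845, 946 to 3314, 193 to 2166, 49 to 932 and 26 to 1652. Between day 7 and day 3, 157 passed with no filter and 287 with library size only. Endothelial scaling called 862, 6928, 3328, 1037 and 124, of which 75.1%, 98.8%, 99.6%, 94.0% and 8.87% were higher, against 59.6%, 64.2%, 68.8%, 61.8% and 23.3% with TMM. With library size only, 75.1% were higher at day 3 and 86.8% at day 7.

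The replicate numbers do not pair the mice. None of 18 pairs of samples with the same number in different groups had deviations correlated above 0.1 (-0.232 to 0.096), and 0 of 14 samples correlated best with its own number. With the number as a block the same members were called, 2, 3, 1, 1 and 0 in the 5 comparisons.

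Log2 fold changes near 0 changed sign. Endothelial scaling gave Stab1 0.033, Stab2 0.043 and Scarb1 0.15 at day 1, Stab2 0.41, Scarb1 0.56 and Msr1 0.58 at day 3 and Stab1 0.36, Stab2 0.32, Scarb1 0.36, Msr1 0.076 and Dab2 0.16 at day 7. Stab1 at day 3 was -0.069 with no filter on low counts and -0.085 with voom. Scarb1 at day 1 was 0.091 with the block. Mrc1 between day 3 and day 1 was -0.15 with voom and -0.019 with the block. Lrp1 between day 7 and day 3 was 0.0058 with RLE, 0.0087 with no filter, 0.085 with at least 10 counts in every sample, 0.0058 with DESeq2 and 0.13 without day 3 replicates 1 and 2. Without those mice Stab2 was 0.14 and Scarb1 0.27 at day 3. Leaving out 1 mouse moved Scarb1 from -0.36 to 0.029 and Msr1 from -0.047 to 0.21 at day 1, Stab1 from -0.21 to 0.26 and Scarb1 from -0.45 to 0.079 at day 3, Mrc1 from -0.13 to 0.29 between day 3 and day 1 and Lrp1 from -0.49 to 0.38 between day 7 and day 3.

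Among log2 ratios, leaving out 1 mouse moved the day 1 differences of Stab1 to Stab2 between -0.24 and 0.28 and of Mrc1 to Stab2 between -1.63 and -0.93, and the difference of Mrc1 to Stab2 between day 3 and day 1 between -0.16 and 0.53. With the longest transcript as length, healthy levels were 118 RPKM for Stab1, 288 for Mrc1, 55.7 for Scarb1, 250 for Msr1 and 119 for Dab2. With 2 mice at day 1, differences there have wide errors, and depth limited none of the 9 genes.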
